A study of Rattus norvegicus with 8 samples.

Results

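Hspa8, Hspa5, Hsp90aa1 and Hsp90ab1 encode 4 chaperones of the Hsp70 and Hsp90 families, and they were followed here in rats of the outbred Sprague Dawley stock, in the lower spinal cord after an injury higher up. The genes were taken by identifier, 4 rows of a table of 32883 Ensembl gene identifiers: ENSRNOG00000034066 for Hspa8, ENSRNOG00000018294 for Hspa5, ENSRNOG00000007219 for Hsp90aa1 and ENSRNOG00000019834 for Hsp90ab1. The names were given with the identifiers when the genes were chosen. The table carries no symbols and the reference used here pairs none of these identifiers with a name, so the names could not be checked. Every count, level and fold change below belongs to the identifier, while the promoter windows were found by gene name. The study compared 4 libraries from rats without spinal cord injury with 4 libraries from rats sampled 4 days after a hemisection, a cut through one side of the cord, at thoracic level 9. The tissue was the lower lumbar cord, below the level of the cut. The labels give no age or sex, do not say whether uninjured rats had a sham operation, and name no transgene or drug.

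Hsp70 proteins bind short exposed hydrophobic stretches of unfolded proteins and release them in cycles driven by ATP. Hsp90 proteins act later, on partly folded clients such as kinases and steroid receptors. Hspa8 (Hsc70) is the Hsp70 of the cytosol made without stress, and in neurons it also strips clathrin from recycling synaptic vesicles. Hspa5 (BiP, GRP78) is the Hsp70 of the endoplasmic reticulum, where it helps secreted and membrane proteins fold and holds the sensors of the unfolded protein response inactive. Hsp90aa1 is the more stress-inducible and Hsp90ab1 the more constant of both cytosolic Hsp90 forms. Heat shock factor 1 drives cytosolic chaperone genes through repeats of the letters GAA and TTC, called heat shock elements, while genes such as Hspa5 respond through the endoplasmic reticulum stress element.

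The promoter of Hspa5 is shown because Hspa5 is the better measured of the chaperones. It is also the one with the same sign in every pair of equally numbered libraries below. The 250 bases before its annotated start lie at chr3:38452766-38453015 on the plus strand of build GRCr8 in RefSeq, and the capitals mark a match to the endoplasmic reticulum stress element:
Hspa5: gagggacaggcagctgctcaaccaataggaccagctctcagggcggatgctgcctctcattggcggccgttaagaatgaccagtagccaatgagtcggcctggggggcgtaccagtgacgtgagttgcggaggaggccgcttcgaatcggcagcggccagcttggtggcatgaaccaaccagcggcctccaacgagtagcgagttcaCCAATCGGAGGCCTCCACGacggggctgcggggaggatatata
The element was searched on both strands as CCAAT, any 9 bases and CCACG, and the match starts 43 bases and ends 25 bases before the gene's start. It was found in 22 of 33469 RefSeq promoter windows of that length, or 0.0657%. Heat shock elements were searched on both strands as GAANNTTC (7.23% of windows), as TTCNNGAA (7.48%) and as 3 units in a row, GAANNTTC followed at once by NNGAA (0.663%), which contains both shorter forms. The window of Hspa8 held the 3-unit form at 2 places, GAAAGTTCCAGAA starting 213 bases and TTCTGGAAGGTTC starting 55 bases before the start, the latter being the plus-strand letters of a match on the minus strand. None of the heat shock forms was found in the windows of Hspa5 and Hsp90ab1, and the endoplasmic reticulum element was found in neither Hspa8 nor Hsp90ab1. The promoter table held 3 of the 4 genes, without Hsp90aa1. These matches describe letters in a window and were not tied to any binding measurement. The windows were found by gene name, and whether they belong to the counted rows was not checked.

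The libraries were made with CEL-Seq2, which reads the 3' end of polyadenylated transcripts and gives each captured molecule a random tag so that amplified copies count once. Each transcript contributes 1 tag whatever its length, so levels of different genes are given as CPM, molecules per 1000000 molecules, and were not divided by length. Library totals ran from 119808 to 405537 molecules. A limit of 3 molecules, about the upper one-sided 95% limit for a count of 0, corresponded to between 7.4 and 25 CPM of the whole library. Both libraries numbered 3 were the shallowest of their groups. The highest count of any row was nonetheless alike in every library, between 3989 and 4080 molecules. That is just under 4096, the number of different tags of 6 bases, a length assumed here. Whether the most abundant genes ran short of tags, which would also enter the totals and the scaling, was not tested. The chaperone rows held at most 219 molecules in a library. Unless the whole library is named, CPM is relative to the molecules in tested genes after TMM scaling, which adjusts each total for differences in composition. No table used here pairs other identifiers with names, so the co-chaperones, other family members and cell type markers listed for this work were not examined, and the labelled tissue could not be checked against its markers.

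The 4 rows fell into 2 very different ranges of abundance. Over all 8 libraries together, Hspa5 had 1082 molecules and Hsp90ab1 had 444, whereas Hspa8 had 2 and Hsp90aa1 had 1. Among the 12968 rows with any molecule, this placed Hspa5 at rank 348 and Hsp90ab1 at rank 976, and left Hspa8 and Hsp90aa1 among the 2553 rows with 1 to 3 molecules in all.

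**Figure D1:**
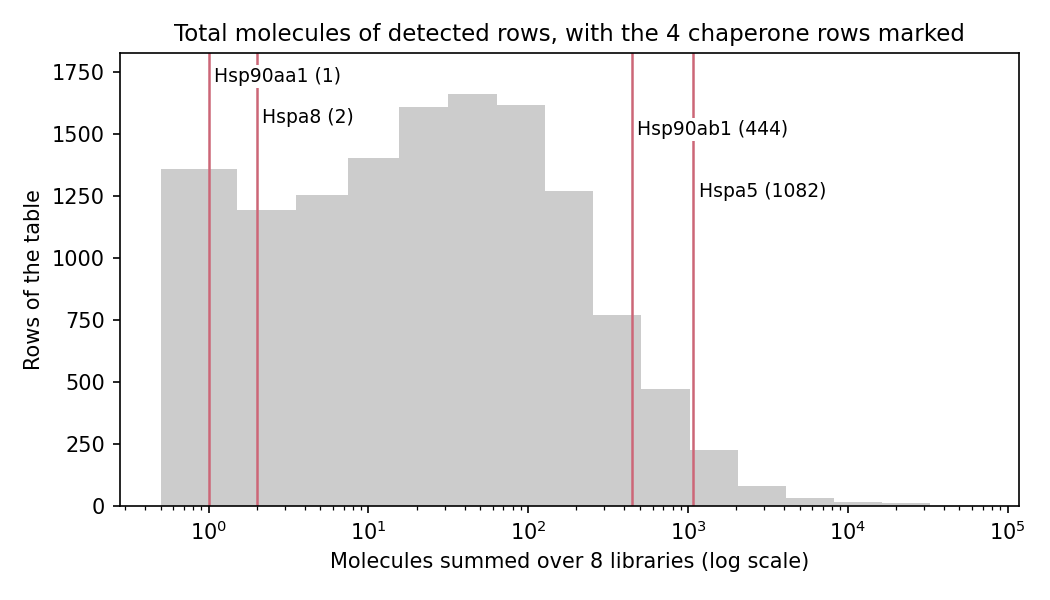
Number of rows (vertical axis) by molecules summed over the 8 libraries (horizontal axis, log scale, bins that double in width), for the 12968 rows with any molecule, with vertical lines at the 4 chaperone rows. Hsp90aa1 (1 molecule) and Hspa8 (2 molecules) sit at the left edge, and Hsp90ab1 (444) and Hspa5 (1082) on the falling right side.

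Hspa8 and Hsp90aa1 were close to absent from the table. The row of Hspa8 held 1 molecule in uninjured replicate 2, 1 in injured replicate 3 and 0 in the other 6 libraries. Pooled over all libraries this is 0.875 CPM of the whole libraries, with an exact 95% binomial interval of 0.106 to 3.16 that covers counting error only. The row of Hsp90aa1 held 1 molecule in injured replicate 2 and 0 in the other 7 libraries. In the uninjured libraries together it had 0 of 1138230 molecules. The limit of 3 molecules is then 2.64 CPM, and the exact two-sided 95% binomial interval reaches 3.24 CPM. Both genes are known from other work as abundantly transcribed in neural tissue, so these rows go against their names and are not read here as the expression of Hspa8 and Hsp90aa1. The Hsp70 and Hsp90 genes have near-identical copies in mammalian genomes, and the sources used here do not say how reads that fit several places were counted. The cause of the near-empty rows was not tested. Both groups lie at or under the limit of 3 molecules in every library, so neither row gives a fold change.

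Hspa5, the endoplasmic reticulum chaperone, was the most abundant of the 4 rows and did not pass the test for a change after injury. Uninjured replicates 1 to 4 held 219, 134, 49 and 190 molecules of it, and injured replicates 1 to 4 held 183, 163, 61 and 83. Scaled, these were 563, 590, 568 and 456 CPM without injury and 506, 436, 475 and 350 CPM after it. Injured replicate 4 was the lowest of the 8 libraries, and the groups overlapped because uninjured replicate 4 lay below injured replicates 1 and 3. The uninjured mean was 544 ± 60.1 CPM and the injured mean 442 ± 67.5 CPM (SD, n = 4 libraries each). On the log2 scale the injured level differed by -0.30 (standard error 0.22, Benjamini-Hochberg adjusted p = 0.918 over 4159 genes by edgeR's quasi-likelihood test). Its 95% interval, -0.76 to 0.16, corresponds to between 0.592 and 1.12 times the uninjured level, so that a fall to under 0.592 times and a rise above 1.12 times lie outside it. An exact two-sided permutation test of the 8 CPM values gave p = 0.0857, where 4 against 4 libraries cannot go below 0.0286. Of all tested genes, 18.8% had a log2 fold change as low as that of Hspa5 or lower, and among the 1073 genes with a mean of at least 50 molecules 13.2% did.

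**Figure D2:**
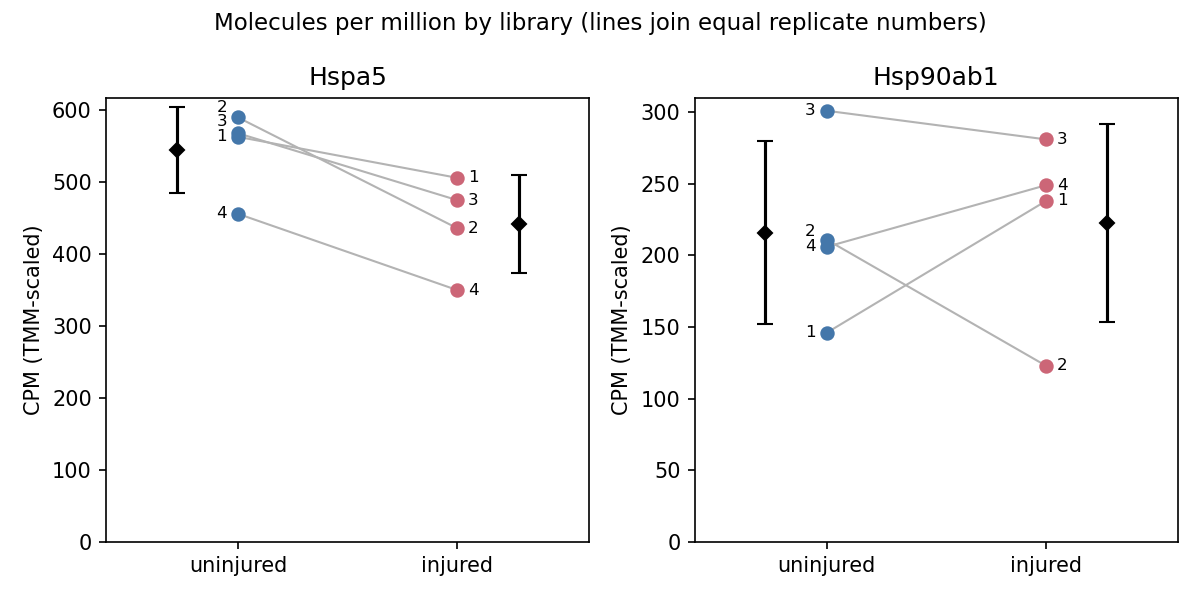
CPM (vertical axis, from 0) of Hspa5 and Hsp90ab1 in each library, with lines joining uninjured and injured libraries of equal replicate number and black diamonds with bars for the mean and SD of each group (n = 4). All 4 lines slope down for Hspa5, from 544 to 442 CPM on average, while those of Hsp90ab1 cross.

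The libraries carry numbers 1 to 4 in both groups. Libraries with equal numbers deviated together across genes, least so for number 3, so values were also compared within numbers. For Hspa5 the log2 ratio of injured to uninjured CPM was -0.15, -0.44, -0.26 and -0.38 for numbers 1 to 4. The injured library was thus the lower one in all 4 pairs. Over all tested genes 374, or 8.99%, were lower in all 4 pairs, and 10.7% were higher in all 4, so the pattern of Hspa5 is one that many genes showed. With the number as a block in the fit, the log2 difference of Hspa5 was -0.31 (standard error 0.15, edgeR adjusted p = 0.375), and its 95% interval ran from -0.63 to 0.01. The block narrowed the interval and did not bring the gene past the threshold.

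Hsp90ab1, the cytosolic Hsp90 made without stress, had nearly equal means in both groups. Its counts were 57, 48, 26 and 86 molecules in uninjured replicates 1 to 4, and 86, 46, 36 and 59 in injured replicates 1 to 4. This gave 146, 211, 301 and 206 CPM without injury and 238, 123, 281 and 249 CPM after it. The highest value, in uninjured replicate 3, rests on 26 molecules. Relative to the whole library it is 217 CPM, with an exact 95% binomial interval of 142 to 318. Both extremes of the 8 scaled values lay in opposite groups, the lowest in injured replicate 2, and the groups overlapped over most of their range. Where the extremes fell depended on the scaling. As CPM of the whole library, uninjured replicates 1 to 4 had 152, 201, 217 and 212. Injured replicates 1 to 4 had 240, 121, 235 and 229 on that scale. There, injured replicates 1, 3 and 4 lay above every uninjured library and injured replicate 2 below every one. The scaled uninjured mean was 216 ± 63.8 CPM and the injured mean 222 ± 68.8 CPM (SD, n = 4 libraries each). The log2 difference was 0.07 (standard error 0.29, edgeR adjusted p = 0.993), and an exact two-sided permutation test gave p = 0.886. The 95% interval, -0.53 to 0.67, reaches from 0.693 to 1.59 times the uninjured level. Within replicate numbers 1 to 4 the log2 ratios were 0.70, -0.78, -0.10 and 0.27, with no common sign. The log2 fold change was -0.09 without uninjured replicate 1 and -0.05 without injured replicate 3, so its sign rests on single libraries.

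Of the 2 chaperone rows that passed the filter on low counts, 0 were called by edgeR, against 41 of 4159 tested genes (0.986%), of which 41 were higher and 0 lower after injury. At an unadjusted p under 0.05 it was again 0 of 2, against 7.84% of tested genes. DESeq2 called 0 of 2, against 1.23% of genes (49 higher and 2 lower), and limma-voom called 0 of 2, against 1.13% (46 higher and 1 lower). With the replicate block, edgeR called 0 of 2, against 2.64% of genes (94 higher and 16 lower). Neither row had groups that did not overlap, where 1.78% of tested genes had every injured library below every uninjured one and 3.08% had every one above. Without both shallow libraries numbered 3, the log2 difference was -0.31 for Hspa5 and 0.10 for Hsp90ab1. The median log2 fold change of all tested genes was -0.01. Misses of the threshold do not show that the levels were the same. The intervals given for both rows state what change remains possible under a fit that shares spread over genes. In tissue as a whole, fewer cells that carry a transcript and less of it in each cell cannot be told apart.

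**Figure D3:**
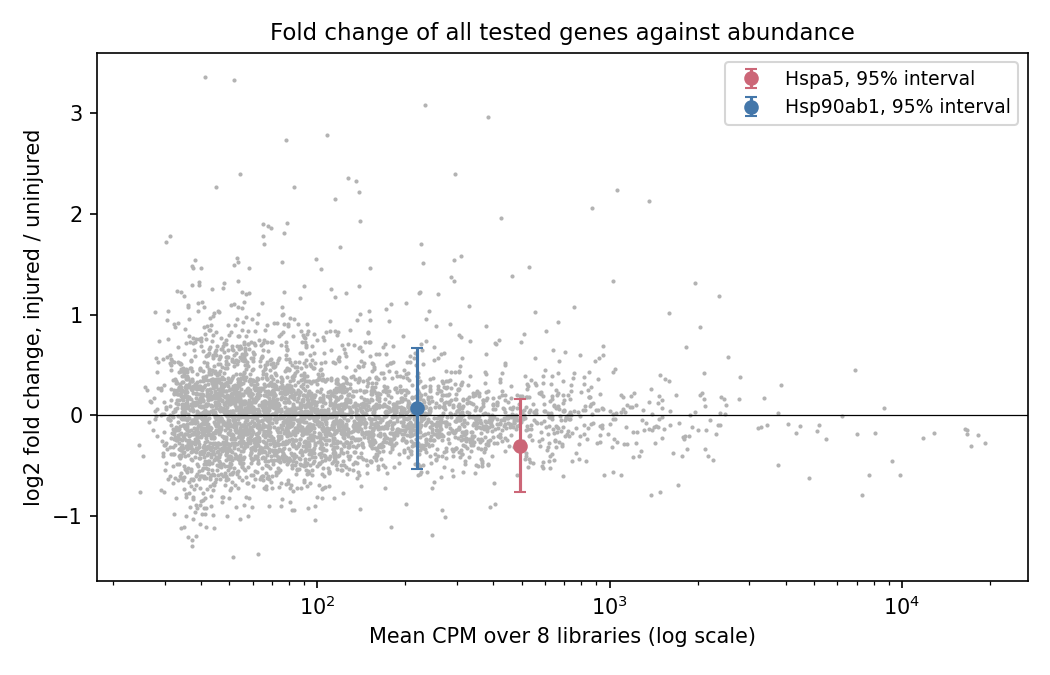
The log2 fold change of injured over uninjured libraries (vertical axis) against the mean CPM over 8 libraries (horizontal axis, log scale) for 4159 tested genes in grey, with Hspa5 and Hsp90ab1 in colour and bars for their 95% intervals. Both chaperones lie within the grey cloud at their abundance and both intervals cross 0.

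The spread between libraries of 1 group was set beside counting error. The coefficient of variation of Hspa5 was 11% in uninjured and 15.3% in injured libraries, where counting error alone would give 9.71% and 10%. For Hsp90ab1 it was 29.5% and 30.9%, against 14.9% and 14.0% from counting. With 4 libraries a group, these coefficients are themselves imprecise, and whether they differ between the chaperones was not tested. The biological coefficient of variation that edgeR fitted was 0.215 for Hspa5 and 0.262 for Hsp90ab1, with a median of 0.240 over tested genes of at least 50 molecules. The fit shares spread over genes, and the trend at their abundance was 0.258 for Hspa5 and 0.252 for Hsp90ab1. For Hspa5 the fitted value lay above both observed coefficients, so its standard error and interval also reflect the spread of other genes. By mean CPM, Hspa5 ranked 344 and Hsp90ab1 887 of the 4159 tested genes.

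The ratio of Hspa5 to Hsp90ab1 molecules within a library does not depend on how libraries are scaled. It was 3.84, 2.79, 1.88 and 2.21 in uninjured replicates 1 to 4 and 2.13, 3.54, 1.69 and 1.41 in injured replicates 1 to 4. The row of Hspa5 held more molecules than that of Hsp90ab1 in 8 of 8 libraries, and the groups overlapped. How reads with several matches were counted is not given, so the ratio compares rows and may differ from that of the transcripts. The mean log2 ratio was 1.37 ± 0.45 in uninjured and 1.04 ± 0.58 in injured libraries (SD, n = 4 each), a difference of -0.33 that an exact two-sided permutation test did not separate from 0 (p = 0.371). The difference was -0.14 without uninjured replicate 1, -0.15 without injured replicate 4 and -0.59 without injured replicate 2. Across the 8 libraries the log2 CPM values of both chaperones had a Pearson r of 0.02 and a Spearman rho of 0.19, and an r of 0.05 after the group means were removed. These are descriptions over 8 libraries that differ in depth.

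**Figure D4:**
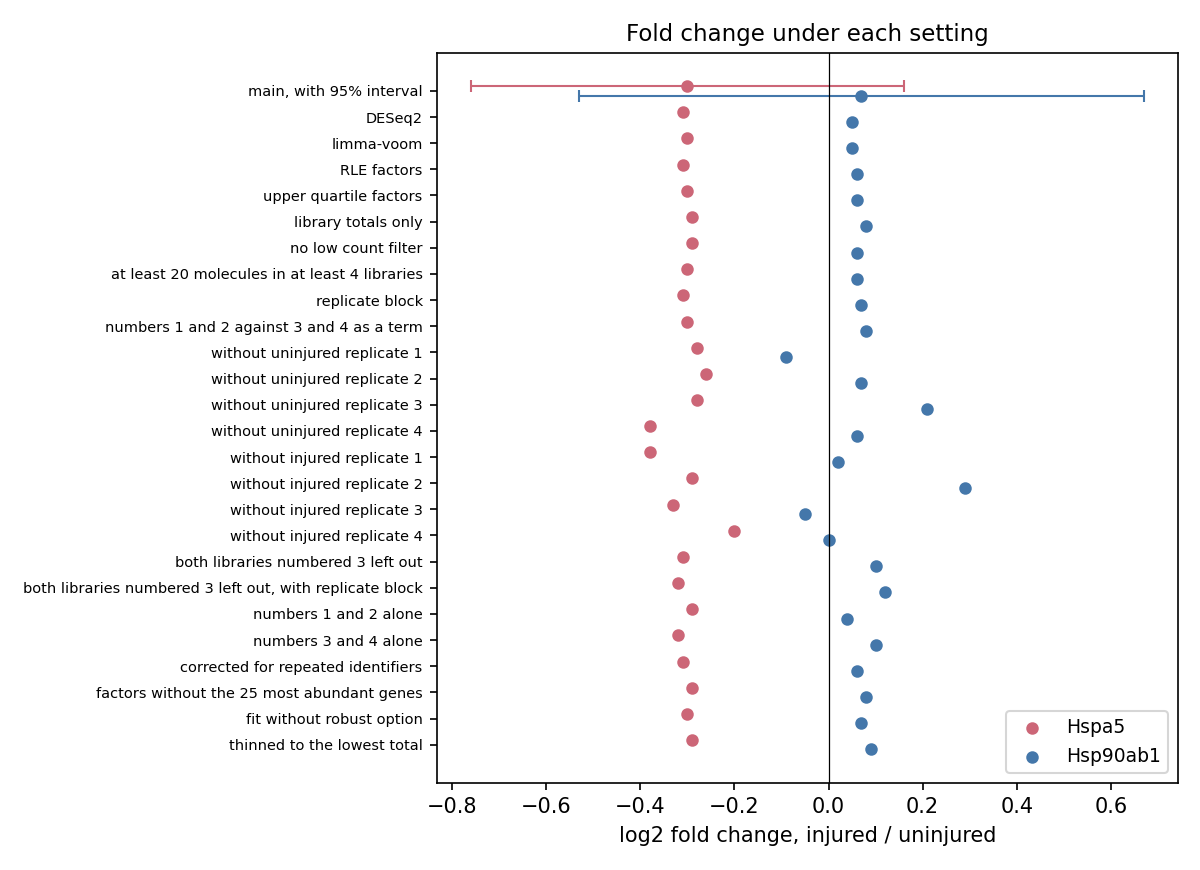
The log2 fold change (horizontal axis) of Hspa5 and Hsp90ab1 under the main settings, with 95% intervals, and under 25 alternatives (vertical axis), 1 point each. Hspa5 stays between -0.38 and -0.20, and Hsp90ab1 lies between -0.09 and 0.29, on both sides of 0.

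Among tested genes with a mean of at least 50 molecules, the one most like each chaperone over the 8 libraries was named by its identifier, as no symbol could be paired. For Hspa5 it was ENSRNOG00000001700, with a Pearson r of 0.95 and a Spearman rho of 0.95 in log2 CPM, chosen as the highest of 1072 genes, and an r of 0.92 after group means were removed. Its uninjured mean was 272 ± 45.2 CPM and its injured mean 182 ± 39.5 CPM (SD, n = 4 libraries each), a log2 difference of -0.57 (standard error 0.24) that did not pass the test (edgeR adjusted p = 0.526). For Hsp90ab1 it was ENSRNOG00000011311, with an r of 0.90 and a rho of 0.71. Its uninjured mean was 719 ± 43.1 CPM and its injured mean 722 ± 89.5 CPM (SD, n = 4 libraries each). The median r over all candidates was 0.04 for Hspa5 and 0.01 for Hsp90ab1, and the tenth highest was 0.86 and 0.80. Both genes were picked as the highest of 1072 correlations over 8 libraries that differ in depth, so the values are a description.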

How the data were processed

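The 4 uninjured and 4 injured CEL-Seq2 libraries of lower lumbar cord shared 1 table. The authors deposited raw counts, one whole number of molecules per Ensembl gene identifier and library, not normalized. Per the submitters' processing notes, HISAT2 2.0.4 and HTSeq 0.6.0 were used with build Rnor_6.0. The sources used here do not give the annotation release, the collapsing of molecule tags or the treatment of reads with several matches.

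The members and lists were chosen with earlier results of these data known. Genes named are the 4 members, listed genes with a symbol (none could be paired) and the most correlated gene for each tested member. Genes were kept with filterByExpr (minimum count 10, minimum total 15), leaving 4159. Groups were compared by a two-sided quasi-likelihood F test with TMM scaling and a robust fit (edgeR 4.0.16 in R 4.3.3). P-values were adjusted over all tested genes (Benjamini-Hochberg, threshold 0.05), and the test was tested on simulated data. DESeq2 1.42.0, limma-voom (limma 3.58.1), other scalings and filters, a correction for repeated tags and the omission of each library were alternatives. All 3 ratios planned between members needed Hspa8 or Hsp90aa1 and could not be computed; the ratio of Hspa5 to Hsp90ab1 was chosen after seeing the data. A prior count of 3 was added to log2 CPM for correlations and for the shares of genes with the same sign in all 4 pairs.

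Deviations from the group means correlated across genes at 0.39, 0.36, 0.17 and 0.45 for libraries of equal number. For unequal numbers they ran from -0.39 to 0.24, the highest for uninjured replicate 1 with injured replicate 2. Uninjured replicate 3 correlated with injured replicate 4 at 0.16, close to the 0.17 of number 3. The numbers, whose meaning the labels do not state, were taken as pairs from the data, and a split of numbers 1 and 2 from 3 and 4 was an alternative. Counts of libraries in a group differed by more than counting error (chi-square per degree of freedom of at least 3.22), so none was treated as a second deposit of another. Nothing states that libraries came from separate animals, and p-values then reflect only how these libraries vary, which may be technical. Totals of 119808 to 405537 molecules set the precision. Plots were drawn with matplotlib 3.10.9.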

Additional observations from a re-analysis of the deposited data

How the results depend on the processing

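Hspa5 had a log2 fold change below 0 in 25 of 25 alternatives, from -0.38 to -0.20 (the same range as over the fits without 1 library), and passed the adjusted threshold in 0 of them, with adjusted p from 0.186 to 1. The lowest, 0.186 (edgeR unadjusted p = 0.0303), came from leaving out both libraries numbered 3 with the replicate block, a setting chosen after seeing the data. Hsp90ab1 ranged from -0.09 to 0.29, both in fits without 1 library, with adjusted p of 0.828 or more, and was below 0 in 2 of 25 alternatives. The difference in the log2 ratio of Hspa5 to Hsp90ab1 ranged from -0.59 to -0.14 over 12 alternatives (p from 0.114 to 0.714, exact permutation tests). With the replicate block it was -0.33 (p = 0.375, exact sign-flip permutation test). The sign-flip test on 4 pairs could not have reached p under 0.05, nor could the permutation test without both libraries numbered 3. The replicate block changed no call of a chaperone. With counts corrected for repeated tags, assumed to have 6 bases, the log2 fold change was -0.31 for Hspa5 and 0.06 for Hsp90ab1. With scaling factors computed without the 25 most abundant genes, it was -0.29 for Hspa5 and 0.08 for Hsp90ab1. The rows of Hspa8 and Hsp90aa1 passed no filter on low counts. They entered the fit with no filter, but no fold change is given from 2 molecules and 1 molecule, and the planned ratios with them could not be computed.

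The count of called genes, 41, became 98 with no filter on low counts, 110 with the replicate block (94 higher, 16 lower), 72 with numbers 1 and 2 against 3 and 4 as a term, 86 in numbers 1 and 2 alone, 3 in numbers 3 and 4 alone and 22.5 (median of 10 draws) after thinning to the lowest total. It was 62 without both libraries numbered 3, 383 when the block was added to that (272 higher, 111 lower), and 23 to 77 without 1 library (23 without uninjured replicate 1 or 4, 77 without uninjured replicate 3). The cause was not tested. For a count of 0 in the shallowest library, the limit of 3 molecules is 25 CPM of the whole library, and the exact two-sided 95% binomial interval reaches 30.8 CPM. Over all 8 libraries, the upper ends of the exact 95% binomial intervals were 3.16 CPM for Hspa8 and 2.44 CPM for Hsp90aa1.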
